A study of Mus musculus with 21 samples.

Results

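The CC chemokines are small secreted proteins named for 2 adjacent cysteines near their amino end. They act on 7-transmembrane receptors of leukocytes and draw these cells along a gradient into tissue, with Ccr2 known as the receptor of the monocyte attractants and Ccr1 as one that binds several macrophage inflammatory proteins. After ischemia-reperfusion injury (IRI) of the kidney, neutrophils enter early and are a known source of such attractants for further leukocytes, and injured tubular epithelium can make some of them as well.

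The 9 genes described here are Ccl2, Ccl3, Ccl4, Ccl5, Ccl6, Ccl7, Ccl8, Ccl9 and Ccl12. They were chosen by symbol as CC chemokines, out of 54123 genes in the data, with earlier results of these data known. RNA-Seq was performed on 21 libraries of wild type mice, which the study's methods describe as male C57BL/6 animals of 8 to 12 weeks. Polymorphonuclear neutrophils (PMNs), labelled as taken from blood, gave 10 libraries, and tubular epithelial cells (TECs), labelled as taken from kidney, gave 11, all from 24 hours after surgery. Surgery was either IRI by clamping of the renal pedicles or a sham operation without clamps, and it followed either remote ischemic preconditioning (RIPC) by a cuff on the hind limb or a control procedure. In PMNs there were 2 libraries of sham operation with the control procedure, 3 of sham operation with RIPC, 2 of IRI with the control procedure and 3 of IRI with RIPC. In TECs these groups held 3, 3, 2 and 3 libraries. No group carried a transgene or a drug. The study describes the libraries as biological replicates, and the labels do not say whether a library pooled animals. The 2 deposited files of each library were added, which gave 20881334 to 30507235 reads in PMNs and 21479605 to 51624602 in TECs.

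Marker genes were read before the chemokines, as the sum over a list of CPM, the reads scaled to 1000000 per library with TMM factors over all 21 libraries. The 12 neutrophil markers summed to between 6379 and 37262 CPM in PMNs and to between 1.72 and 307 CPM in TECs, and each of the 12 had reads in at least some PMN libraries, while Camp was at 0 in 3 of them. The 11 proximal tubule markers summed to between 4202 and 39724 CPM in TECs. They were also read in every PMN library, at 1880 to 15173 CPM after sham operation and 799 to 1585 CPM after IRI. The 12 monocyte and macrophage markers summed to between 5523 and 19283 CPM in PMNs after sham operation and to between 2325 and 4472 CPM after IRI, without overlap. The PMN libraries therefore held transcripts of other cell types beside those of neutrophils, and more of them after sham operation. Whether all cells of these libraries came from the circulation, as labelled, cannot be told from the files, so a PMN value is that of the whole library. In such bulk samples, fewer cells of a type and less RNA per cell cannot be told apart.

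All 9 genes lie within 1.6291 Mb of chromosome 11 (GRCm38, Gencode annotation M21), in 2 groups. The monocyte attractants Ccl2 (start 82035571, end 82037453), Ccl7 (start 82045712, end 82047525), Ccl12 (start 82101845, end 82103400) and Ccl8 (start 82115185, end 82116799) stand on the plus strand. The second group runs from Ccl5 (start 83525778, end 83530518) through Ccl9 (start 83572919, end 83578636), Ccl6 (start 83587882, end 83593087) and Ccl3 (start 83647844, end 83649355) on the minus strand to Ccl4 (start 83662584, end 83664683) on the plus strand. Reads of 50 bases could be told apart between these genes: over the annotated transcripts, no 50-base stretch of 8 of the genes was shared with any other gene. Of Ccl9, 59 of 2996 stretches (1.97%) were shared, with Ppp1r7.

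The 250 bases before the transcription start were held by the RefSeq table (GRCm38.p6) for 5 of the 9 genes, and 4 of them are shown because these genes had the contrasting patterns described below. Ccl6 and Ccl9 followed the neutrophil markers, Ccl3 did not, and Ccl12 was lower after IRI. They read 5′ to 3′ on the strand of the gene, with the letters of 3 motifs in capitals.
Ccl3 (chr11:83649379-83649628, minus strand): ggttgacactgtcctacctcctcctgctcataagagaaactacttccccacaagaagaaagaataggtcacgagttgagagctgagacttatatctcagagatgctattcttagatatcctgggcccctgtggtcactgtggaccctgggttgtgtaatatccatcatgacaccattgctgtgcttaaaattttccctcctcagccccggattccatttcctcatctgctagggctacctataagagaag
Ccl6 (chr11:83593088-83593337, minus strand): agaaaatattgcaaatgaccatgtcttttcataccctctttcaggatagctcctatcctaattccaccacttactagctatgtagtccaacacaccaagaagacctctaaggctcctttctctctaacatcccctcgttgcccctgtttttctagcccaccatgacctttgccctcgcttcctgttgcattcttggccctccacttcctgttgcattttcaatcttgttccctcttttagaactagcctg
Ccl9 (chr11:83578637-83578886, minus strand): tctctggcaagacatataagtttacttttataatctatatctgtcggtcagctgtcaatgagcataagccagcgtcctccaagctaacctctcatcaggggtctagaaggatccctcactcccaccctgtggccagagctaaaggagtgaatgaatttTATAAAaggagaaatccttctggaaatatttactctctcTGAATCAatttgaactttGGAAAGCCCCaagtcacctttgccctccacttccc
Ccl12 (chr11:82101595-82101844, plus strand): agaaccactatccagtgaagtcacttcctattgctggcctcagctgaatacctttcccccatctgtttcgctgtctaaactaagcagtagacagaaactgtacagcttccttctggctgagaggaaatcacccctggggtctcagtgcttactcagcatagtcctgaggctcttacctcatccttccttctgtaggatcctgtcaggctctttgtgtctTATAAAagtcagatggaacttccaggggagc
The letters TATAAA, searched on the strand of the gene, stood in 3 of the 5 windows, those of Ccl8, Ccl9 and Ccl12, against 7.59% of all 32851 promoters. An AP-1 site (TGANTCA, both strands) stood in 1 window, that of Ccl9, against 6.75% of all promoters. The consensus of NF-kB (both strands) was also found in the window of Ccl9 only, against 7.25%, and a C/EBP site (TTGCNNAA, both strands) in none, against 9.56%. A match of letters describes the window and is no measure of binding.

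Per unit of transcript length, Ccl6 and Ccl4 were the highest CC chemokine transcripts of PMNs. The length-scaled level (TPM, in which a library's transcripts add up to 1000000) of Ccl6, a macrophage inflammatory protein-related chemokine that acts through Ccr1, was 200 TPM in the lowest of 10 libraries, 955 in the median and 2186 in the highest. Ccl4, the macrophage inflammatory protein 1-beta, ran from 408 through 745 to 1468 TPM. Of the summed TPM of the 9 genes, Ccl6 made up a median of 36.8% and Ccl4 of 29.1%. Ccl6 led in 5 libraries, Ccl4 in 4, all after sham operation, and Ccl3 in 1. Ccl3, the macrophage inflammatory protein 1-alpha and a ligand of Ccr1, followed with a median of 337 TPM. Ccl9, another Ccr1 ligand, had a median of 192 TPM and Ccl2, the main ligand of Ccr2, one of 68.7 TPM. Ccl12 and Ccl7, both ligands of Ccr2, and Ccl5, a ligand of Ccr1 and Ccr3, had medians of 7.62, 10.7 and 0.187 TPM. Ccl8 had 0 reads in all 10 PMN libraries, which allows up to 3 reads in each file of a library.

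**Figure D1:**
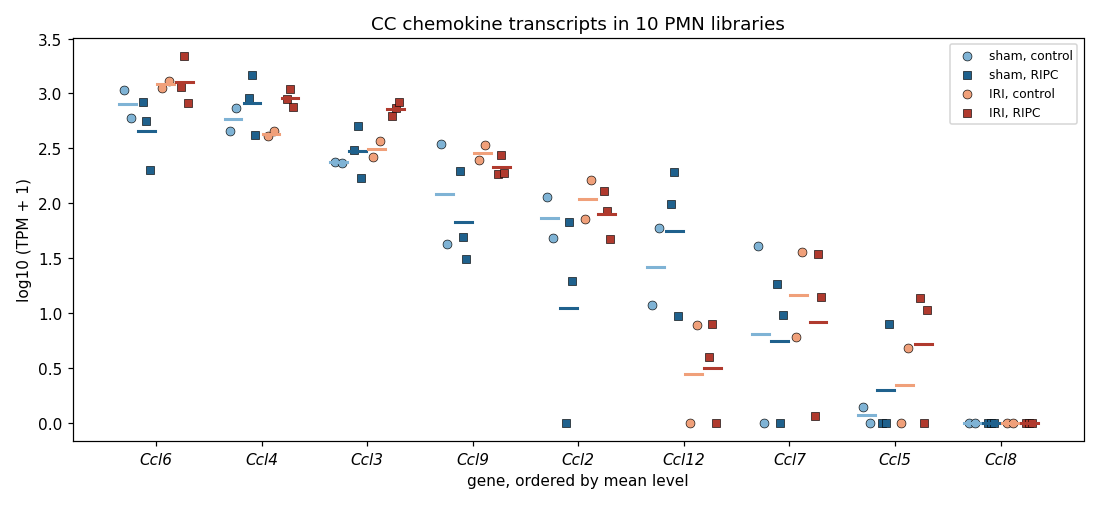
Level of each CC chemokine transcript in the 10 PMN libraries, as log10 of TPM plus 1 (vertical axis), with genes ordered by mean level; points are libraries, colours and shapes the 4 groups, and bars the mean of a group. Ccl6, Ccl4 and Ccl3 were high in every library, Ccl12 was higher after sham operation than after IRI without overlap, and Ccl8 was at 0 throughout.

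Genes were ordered by their mean log2 of TPM plus 1 over the 10 libraries. Neighbours were compared on the same values with an exact two-sided sign-flip permutation test, adjusted over 8 pairs. The direction of each step was thus set by the ordering, and the p values describe the order only. Over both surgeries together, Ccl6 and Ccl4 did not differ beyond their spread, with a mean log2 difference of 0.28 ± 1.03 (SD, n = 10) and an exact adjusted p of 0.460. After IRI the TPM of Ccl4 was 0.346 to 0.913 times that of Ccl6, so Ccl6 was higher in every library. After sham operation it was 0.424 to 2.64 times, with a median of 1.25, and the surgeries overlapped. Ccl4 was above Ccl3 in 9 of 10 libraries by 0.90 ± 0.61 (SD, n = 10; exact adjusted p = 0.0260). Ccl3 was above Ccl9 in 9 libraries by 1.39 ± 1.27 (SD, n = 10; exact adjusted p = 0.0260), and Ccl9 above Ccl2 in 8 by 1.63 ± 2.27 (SD, n = 10; exact adjusted p = 0.0260). In 1 of these libraries Ccl2 was at 0, which widened the last step. Below Ccl2, no step of the order passed the threshold, with exact adjusted p between 0.125 and 0.701. Ccl6, Ccl4, Ccl3 and Ccl9 had reads in every PMN library, and each of the other 5 genes was at 0 in at least 1.

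In PMNs, IRI was compared with sham operation to ask how the chemokine transcripts of the PMN libraries differed after injury of the kidney. By edgeR's quasi-likelihood test, with the difference averaged over RIPC and control, 104 of 25002 genes changed at an adjusted p under 0.05, which is 0.416% of the genes tested. None of the 8 CC chemokines tested passed, and Ccl8 was not tested since it had no reads. An unadjusted p under 0.05 was found for 2 of the 8, and for 2958 of all 25002 genes. The DESeq2 Wald test also called 0 of the 8. The median log2 change of the 8 genes was 0.93, and that of all genes tested was -0.01.

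Ccl6 had 1447 and 933 CPM in the sham control libraries and 1243, 767 and 292 CPM after sham operation with RIPC. After IRI it had 1858 and 2065 CPM with the control procedure and 1873, 3713 and 1415 CPM with RIPC. The groups overlapped only through replicate 1 of sham control, and the mean was 936 ± 447 (SD, n = 5) after sham operation and 2185 ± 887 (SD, n = 5) after IRI. The fitted log2 change was 1.14 (SE 0.42) with an edgeR adjusted p of 0.390. Ccl9 had 648 and 89.5 CPM after sham operation with the control procedure and 418, 112 and 73.7 CPM with RIPC, so 3 of 5 libraries were low. After IRI all 5 lay between 443 and 814 CPM, and the fitted log2 change was 1.15 (SE 0.63, edgeR adjusted p = 0.460). Without a filter on low counts, under which 971 of 38823 genes were called, Ccl6 passed with an edgeR adjusted p of 0.00715.

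Over both surgeries together, the neutrophil markers moved with both genes. Across the 10 PMN libraries, log2 CPM of Ccl6 and of the 12 summed neutrophil markers, none of them a chemokine, had a Pearson's r of 0.90 (permutation adjusted p = 0.00091, over 7 genes) and a Spearman's rho of 0.92 (permutation adjusted p = 0.00203). For Ccl9, r was 0.88 (permutation adjusted p = 0.00084) and rho 0.95 (permutation adjusted p = 0.00098). With the 2 libraries farthest from the median marker level left out, r was 0.82 for Ccl6 and 0.83 for Ccl9. The permutations ran over both surgeries, while the marker sum itself had a median of 9893 CPM after sham operation and 23224 CPM after IRI. Within a surgery there were 5 libraries, and no r is given for so few. After IRI, Ccl6 at 1415, 1858, 1873, 2065 and 3713 CPM stood beside marker sums of 13864, 19348, 23224, 24251 and 37262 CPM, in the same order. After sham operation, Ccl6 at 292, 933, 767, 1243 and 1447 CPM stood beside sums of 6379, 9702, 9893, 11290 and 29542 CPM, with 1 neighbouring pair out of order. Along the same sums, Ccl9 was at 443, 570, 478, 814 and 701 CPM after IRI, partly out of order. After sham operation it was at 73.7, 89.5, 112, 418 and 648 CPM, in the same order. Per 1000 CPM of neutrophil markers, Ccl6 was at a median of 77.6 CPM after sham operation (45.8 to 110) and 96.0 CPM after IRI (80.6 to 102). This log2 difference was 0.37, with an exact two-sided permutation p of 0.262 (n = 5 and 5), and for Ccl9 it was 0.73, with an exact p of 0.135 (n = 5 and 5).

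**Figure D2:**
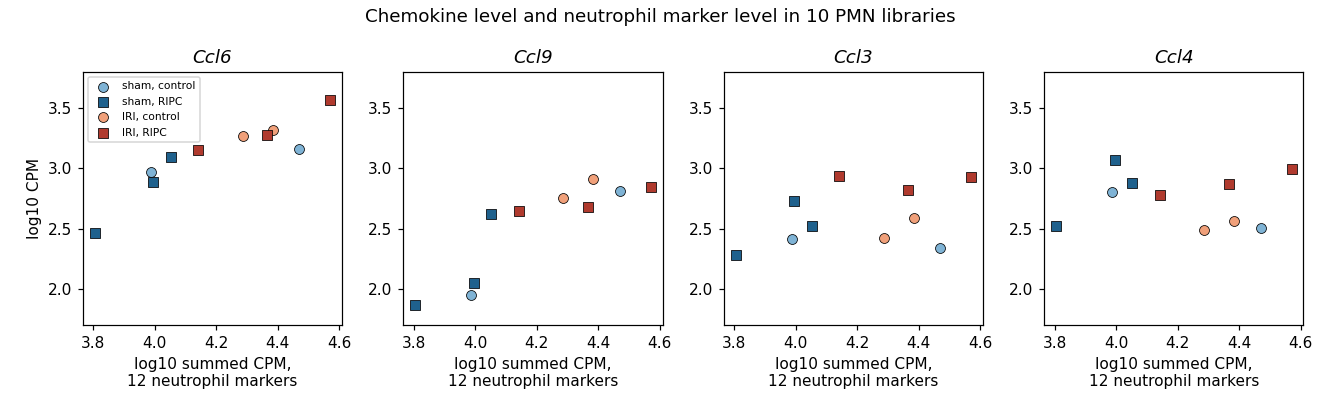
Log10 CPM of Ccl6, Ccl9, Ccl3 and Ccl4 (vertical axes) against log10 of the summed CPM of 12 neutrophil markers (horizontal axes); each point is a PMN library, coloured by group. Ccl6 and Ccl9 rose with the markers (r = 0.90 and 0.88), while Ccl3 (r = 0.38) and Ccl4 (r = -0.04) did not follow them.

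Of the other 5 genes set against the markers, Ccl3 had an r of 0.38, Ccl4 of -0.04, Ccl2 of 0.50, Ccl7 of 0.44 and Ccl12 of -0.44, with permutation adjusted p of 0.278 to 0.901. In ranks, Ccl2 (rho = 0.76, permutation adjusted p = 0.0344) and Ccl7 (rho = 0.71, permutation adjusted p = 0.0474) passed. Without the same 2 libraries, r was -0.73 for Ccl4 and -0.16 for Ccl3.

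Ccl3 and Ccl4, which lie next to each other and are known to be induced together, changed unequally with surgery. Ccl3 was at 218 and 260 CPM after sham operation with the control procedure and at 334, 533 and 190 CPM with RIPC. After IRI it was at 266 and 386 CPM with the control procedure and at 664, 841 and 860 CPM with RIPC. The fitted log2 change was 0.79 (SE 0.32, unadjusted p = 0.0352, edgeR adjusted p = 0.413). Ccl4 was at 321 and 642 CPM after sham operation with the control procedure and at 757, 1177 and 332 CPM with RIPC, and after IRI at 309 and 365 CPM with the control procedure and at 743, 986 and 597 CPM with RIPC. Its levels after sham operation and after IRI covered the same range, and the log2 change was -0.26 (SE 0.37, edgeR adjusted p = 0.844).

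The reads of Ccl3 per read of Ccl4, a ratio within a library that no scaling affects, separated the surgeries. The ratio was 0.678 and 0.406 after sham operation with the control procedure and 0.442, 0.453 and 0.571 with RIPC. After IRI it was 0.860 and 1.06 with the control procedure and 0.894, 0.854 and 1.44 with RIPC. All 5 libraries after IRI lay above all 5 after sham operation, with or without RIPC. On the log2 scale the difference was 1.00 (SD 0.31 after sham operation and 0.32 after IRI, n = 5 each), with an exact two-sided permutation p of 0.00794, the smallest that 5 against 5 libraries allow, and of 0.0476 adjusted over the 6 ratios among Ccl3, Ccl4, Ccl6 and Ccl9. These ratios were chosen after the levels had been seen. Each other ratio overlapped between the surgeries, with exact adjusted p of 0.127 to 0.500. The sum of the monocyte and macrophage markers also separated the surgeries. Among sham libraries, replicates 1 and 2 of RIPC had the highest sums, 19283 and 14742 CPM, and the highest levels of Ccl4, 757 and 1177 CPM. After IRI the sums of monocyte and macrophage markers were at most 4472 CPM, while Ccl4 reached 986 CPM. The part of these cells in the ratio was not tested. The median ratio of Ccl4 to Ccl6 was 0.688 after sham operation and 0.265 after IRI, and that of Ccl6 to Ccl9 was 3.96 and 3.26.

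**Figure D3:**
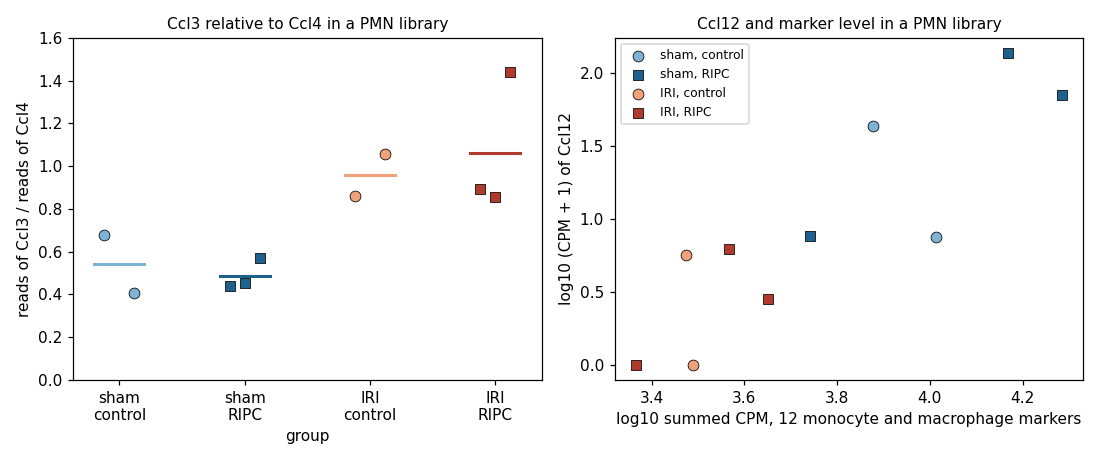
Left, reads of Ccl3 divided by reads of Ccl4 (vertical axis, from 0) in each PMN library by group, with bars at the group mean; the 5 libraries after IRI lay between 0.854 and 1.44, all above the 5 after sham operation (0.406 to 0.678). Right, log10 of CPM plus 1 of Ccl12 against log10 of the summed CPM of 12 monocyte and macrophage markers in the same libraries; both were higher after sham operation.

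Ccl12, an attractant of monocytes, was read mainly after sham operation. It was at 6.50 and 42.1 CPM after sham operation with the control procedure and at 69.6, 135 and 6.64 CPM with RIPC. After IRI it was at 0 and 4.62 CPM with the control procedure and at 1.79, 5.21 and 0 CPM with RIPC. Every library after IRI was below every library after sham operation, a separation in this direction that 2.08% of all genes tested showed. The mean was 51.9 ± 53.3 (SD, n = 5) after sham operation and 2.32 ± 2.48 (SD, n = 5) after IRI, and the 135 CPM of 1 library weighed most in the former. The log2 difference was -4.18 (SE 1.87, unadjusted p = 0.0515, edgeR adjusted p = 0.413), and without a filter on low counts the adjusted p was 0.0395. The fitted size rested on single libraries: the log2 difference was -8.50 without replicate 2 of IRI control, -4.87 without replicate 2 of IRI with RIPC and -3.16 without replicate 2 of sham control, with edgeR adjusted p of 0.399 to 0.891 over all libraries left out in turn.

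The monocyte and macrophage markers moved the same way. Their sum did not overlap between the surgeries either, as given above, and of the 12 markers 4 had groups that did not overlap, all lower after IRI, while none passed the threshold. C1qa, C1qb and C1qc, chains of complement C1q made by tissue macrophages, had medians of 1193, 1846 and 1142 CPM after sham operation and of 272, 454 and 26.2 CPM after IRI. Fcgr1 and Ly6c2 of the same list had higher medians after IRI, at 91.2 and 159 CPM against 12.5 and 91.7 CPM. Proximal tubule markers were lower after IRI as well. The part of these cells in the difference of Ccl12 was not tested.

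The other attractants of monocytes were read unevenly. Ccl2 was at 124 and 59.0 CPM after sham operation with the control procedure and at 0, 93.9 and 24.7 CPM with RIPC, where the library at 0 had none of the 475 to 5293 reads found in the others. After IRI it was at 87.3 and 207 CPM with the control procedure and at 161, 114 and 61.2 CPM with RIPC. The log2 change of 1.08 was smaller than its SE of 1.27 (edgeR adjusted p = 0.780). Ccl7 was at 0 in 2 of 5 libraries after sham operation and at 12.7 to 44.3 CPM in the other 3, and at 0.204 to 46.1 CPM after IRI (log2 change 0.47, SE 1.96). Ccl5, a chemokine made by T cells among others, reached 5.55 CPM after sham operation and 6.36 CPM after IRI, with 0 reads in 5 of the 10 libraries. T and NK cell markers summed to at most 64.9 CPM in PMNs.

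The question whether RIPC changed these transcripts was addressed within each surgery. After sham operation 1 of 25002 genes passed in PMNs (0.004%) and after IRI 0 of 25002 passed (0%), with 680 genes at an unadjusted p under 0.05 and 0 called members also by the Wald test of DESeq2. No CC chemokine passed in either comparison. In PMNs, DESeq2 with apeglm, at an s value under 0.01, called 278 genes after IRI and none of the members.

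After IRI, Ccl3 and Ccl4 had higher values with RIPC than without, in groups that did not overlap. As the values above show, the 3 RIPC libraries had 664 to 860 CPM of Ccl3 against 266 and 386 CPM in the control libraries, a mean of 788 ± 108 (SD, n = 3) against 326 ± 85.1 (SD, n = 2). For Ccl4 the means were 775 ± 196 (SD, n = 3) and 337 ± 39.8 (SD, n = 2). The log2 difference was 1.23 (SE 0.47, unadjusted p = 0.0262) for Ccl3 and 1.16 (SE 0.55, unadjusted p = 0.0640) for Ccl4, each with an edgeR adjusted p of 0.920. Groups that did not overlap in this direction were seen for 6.41% of all genes tested with these 2 and 3 libraries, and 2 of 8 members were among them. The s value of apeglm was 0.0515 for Ccl3 and 0.0638 for Ccl4.

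After sham operation, RIPC and control libraries overlapped for all 8 genes tested, where 12.8% of all genes did not overlap. The log2 difference was 0.54 (SE 0.45) for Ccl3, 0.63 (SE 0.54) for Ccl4, -0.66 (SE 0.57) for Ccl6, -0.90 (SE 0.86) for Ccl9, -1.22 (SE 1.75) for Ccl2 and 1.52 (SE 2.39) for Ccl12, with edgeR adjusted p of 0.814 to 0.989. The difference between the RIPC effects after IRI and after sham operation was tested as an interaction. It was 0.70 (SE 0.63) on the log2 scale for Ccl3 and 0.53 (SE 0.75) for Ccl4, with edgeR adjusted p of 0.919 and 1. At these group sizes the errors of Ccl2, Ccl5, Ccl7 and Ccl12 spanned more than 1.7 on the log2 scale in each RIPC comparison, so changes of several times would not have been detectable.

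**Figure D4:**
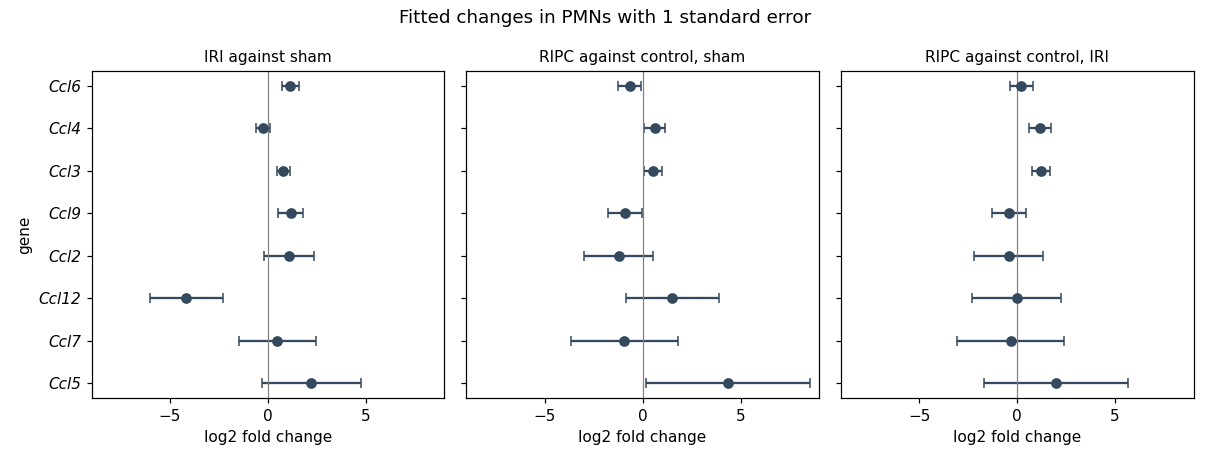
Log2 fold change (horizontal axes) of the 8 CC chemokines tested in PMNs with 1 standard error, for IRI against sham operation and for RIPC against control after each surgery. The errors were narrowest for Ccl3, Ccl4 and Ccl6 and widest for Ccl5, and no change passed the threshold.

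TECs held few reads of these genes. Ccl7 and Ccl12 had 0 reads in all 11 TEC libraries, and Ccl8 had 8 reads in 1 sham control library and 0 in the others. Ccl2 had reads in 2 libraries, at 0.661 CPM in sham control and 4.39 CPM in IRI control. Ccl9 was the only member with reads in all 11, at 0.0249 to 14.3 CPM. The highest level of Ccl3 was 10.9 CPM, that of Ccl4 13.6 CPM, that of Ccl5 8.00 CPM and that of Ccl6 8.01 CPM, each in 1 library after IRI, while 3 to 7 of the 11 libraries had 0 reads of these genes. The 9 genes summed to 0.227 to 7.96 CPM after sham operation and to 5.14 to 26.6 CPM after IRI. Neutrophil markers were higher after IRI in the same way, with a median sum of 30.0 CPM (1.72 to 79.1) after sham operation and of 148 CPM (34.8 to 307) after IRI. Lcn2, which injured tubule also makes, carried much of this sum, at 0 to 50.3 CPM after sham operation and 0.185 to 222 CPM after IRI. The other 11 markers summed to 1.72 to 32.4 CPM after sham operation and 34.6 to 109 CPM after IRI, and the part of neutrophils in the chemokine reads was not tested.

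In TECs 363 of 25917 genes changed between IRI and sham operation (1.4%) and none of the 6 CC chemokines tested, with edgeR adjusted p of 0.479 to 1. Fold changes are not given, since groups without a read make them depend on the fit. With RIPC no CC chemokine passed, against 0 of all genes after sham operation and 1 (0.00386%) after IRI. Ccl4 had 104, 88 and 294 reads after IRI with RIPC and 0 reads in both control libraries (edgeR adjusted p = 0.778). Groups that did not overlap in this direction made up 7.76% of the genes tested. Ccl6 was lower with RIPC without overlap, at 0, 2 and 5 reads against 7 and 175 in the control libraries (edgeR adjusted p = 0.778). Its reads with RIPC lay within the 6 that a count of 0 allows. DESeq2 with apeglm called Ccl4 here, at an s value of 0.00158, beside 184 genes in all, and called no other member in the TEC or PMN comparisons of RIPC. After sham operation the 2 TEC libraries with reads of Ccl4 were replicate 2 of control, with 62, and replicate 3 of RIPC, with 75.

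PMNs were then set against TECs within each surgery to ask in which libraries the chemokine transcripts were found. Tissue and isolation went with cell type, since PMNs were labelled as blood and TECs as kidney. Monocyte and macrophage markers summed to 2325 to 19283 CPM in PMNs and to at most 342 CPM in TECs. The contrast is thus one of whole libraries and cannot say which cells in them carried the transcripts. After sham operation 832 of 31769 genes differed (2.62%), of which 472 were higher in PMNs, 1.49% of those tested, and 7 of the 8 CC chemokines tested were among them. After IRI 847 genes differed (2.67%), 474 were higher (1.49%), and 5 of 8 members were among them. Ccl5 passed in neither by edgeR, while the DESeq2 Wald test called it after sham operation (adjusted p = 0.0175). Ccl7 and Ccl12, without a read in any TEC library, entered these tests through their PMN reads alone and could differ only toward PMNs. Their calls thus add nothing, and 5 of the other 6 passed after each surgery. All PMN libraries lay above all TEC libraries after sham operation for Ccl3, Ccl4, Ccl6 and Ccl9, a separation shown by 3.76% of all genes tested. Ccl12 was also separated, through its PMN reads alone, which adds nothing. Ccl2, Ccl5 and Ccl7 overlapped.

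After sham operation Ccl6 was at 292 to 1447 CPM in PMNs, and in TECs at 4.04 CPM in replicate 2 of control and at most 0.0884 CPM in the other 5 libraries (edgeR adjusted p = 5.16e-05). Ccl3 was at 190 to 533 CPM in PMNs, and in TECs at 2.14 CPM in that same library and at 0 in the others (edgeR adjusted p = 0.00023). Ccl4 was at 321 to 1177 CPM in PMNs, and in TECs at 1.55 and 3.32 CPM in 2 libraries and at 0 in 4 (edgeR adjusted p = 0.00107). The TEC levels of these genes thus came from 1 or 2 libraries, and no fold is given against such means. Ccl9 was at 73.7 to 648 CPM in PMNs, and in TECs at 7.06 CPM in replicate 1 of RIPC and at 0.0249 to 0.661 CPM in the others (edgeR adjusted p = 0.000271). Ccl2 was at 0 to 124 CPM in PMNs, and in TECs at 0.661 CPM in 1 library and at 0 in 5 (edgeR adjusted p = 0.00882). Since no TEC library had a read of Ccl12 or Ccl7, their folds are bounds on means, with TECs set at 3 reads in each file. The PMN mean was at least 232-fold that of TECs for Ccl12 and at least 71.7-fold for Ccl7. Ccl7 was at 0 in 2 of the 5 PMN libraries, so its groups overlapped. The edgeR calls of Ccl12 (adjusted p = 0.00867) and Ccl7 (adjusted p = 0.0324) add nothing, as stated above. Ccl5 was at 1.14 ± 2.47 CPM in PMNs (SD, n = 5) and 0.656 ± 1.61 CPM in TECs (SD, n = 6), which overlapped (edgeR adjusted p = 0.575).

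After IRI, Ccl6 was at 1415 to 3713 CPM in PMNs, and in TECs at 8.01 CPM in replicate 2 of control and at most 0.279 CPM in the other 4 libraries (edgeR adjusted p = 0.000451). Ccl3 was at 266 to 860 CPM against 0 to 10.9 CPM (edgeR adjusted p = 0.00372), and Ccl4 at 309 to 986 CPM against 0 to 13.6 CPM (edgeR adjusted p = 0.00373). Ccl9 was at 443 to 814 CPM against 0.478 to 14.3 CPM (edgeR adjusted p = 0.00291), and Ccl2 at 61.2 to 207 CPM against 4.39 CPM in 1 TEC library and 0 in 4 (edgeR adjusted p = 0.0282). All PMN libraries lay above all TEC libraries for these 5 genes, a separation shown by 3.94% of all genes tested. For Ccl7, 1 PMN library had 5 reads, within the 6 that a count of 0 in TECs allows. The PMN means of Ccl7 and Ccl12 were at least 88.2-fold and at least 9.11-fold those of TECs. Ccl12 was at 0 in 2 of the 5 PMN libraries. Ccl7 and Ccl12 missed the threshold with edgeR adjusted p of 0.0659 and 0.0778. The effect of surgery was not shown to differ between the cell types, since by edgeR 0 of 31769 genes passed that test, with 3102 at an unadjusted p under 0.05, and the DESeq2 Wald test called 0 members. With fewer libraries the calls thinned: in the groups without RIPC alone, 3 members passed after sham operation and 0 after IRI, and in those with RIPC 3 and 2. Without replicate 2 of the sham control TECs, 4 passed after sham operation.

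**Figure D5:**
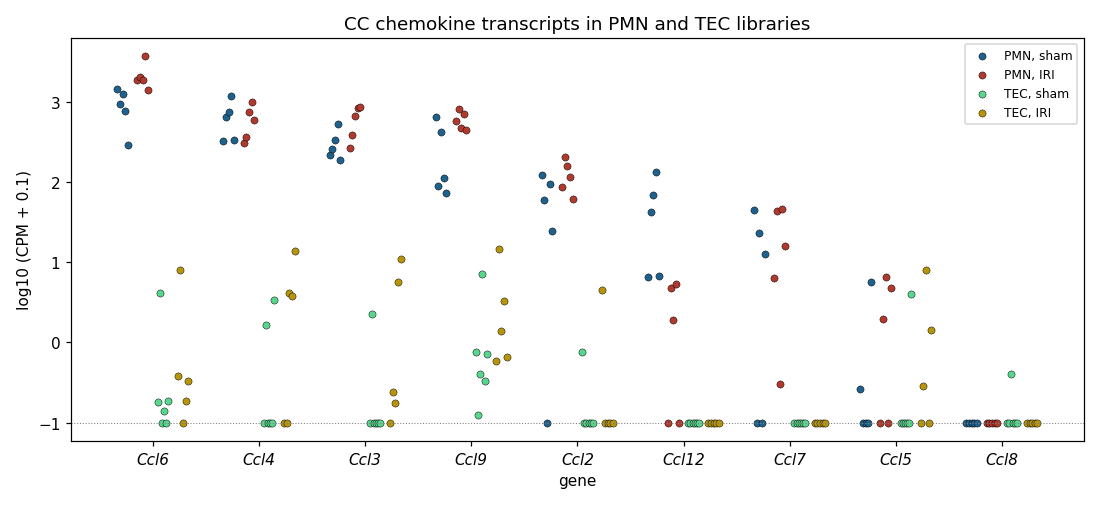
Log10 of CPM plus 0.1 (vertical axis) of each CC chemokine in PMN and TEC libraries after sham operation and IRI; each point is a library and the dotted line marks 0 reads. Ccl6, Ccl4, Ccl3 and Ccl9 stood at 73.7 CPM or more in all PMN libraries and at 14.3 CPM or less in all TEC libraries, and Ccl5 overlapped between the cell types.

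The receptors of these chemokines were read from a list of 15 CC and atypical receptors. Of the 11 tested in PMNs, 1 rose after IRI and none fell. Ccrl2, an atypical receptor that binds the attractant chemerin, was at 152 to 258 CPM after sham operation and at 1099 to 3280 CPM after IRI, a log2 change of 3.23 (SE 0.24, edgeR adjusted p = 0.00438). Ccr1, the receptor of Ccl3, Ccl6 and Ccl9, was at 27.1 to 378 CPM after sham operation and at 1032 to 1924 CPM after IRI. Its groups did not overlap, and the log2 difference of 3.25 (SE 0.66) had an edgeR adjusted p of 0.106. Ccr2 was at 89.6 to 169 CPM after sham operation and at 60.2 to 266 CPM after IRI, and its groups overlapped. Ccr3, the eosinophil receptor, had at most 0.693 CPM in PMNs. With RIPC after IRI none of the 11 receptors passed.

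Of 18 inducers and relays of chemokine transcription, 16 were tested in PMNs, 2 rose after IRI and none fell. Il1b, the interleukin-1 beta, had a median of 1536 CPM after sham operation and 6034 CPM after IRI (log2 change 1.97, SE 0.27, edgeR adjusted p = 0.0262). Nfkbia, the inhibitor of NF-kB and itself a target of it, had 559 and 2866 CPM (log2 change 2.23, SE 0.37, edgeR adjusted p = 0.0484). The groups of 9 of the 16 did not overlap and were higher after IRI, where 3.43% of all genes tested showed this, and the median log2 difference of the 16 was 2.37. The summed neutrophil markers also had a higher median after IRI, at 23224 CPM against 9893 CPM. The part of the cell mix in the differences of receptors and inducers was not tested. No inducer passed in the RIPC comparisons of PMNs. With RIPC after IRI, 6 of the 16 were higher without overlap, against 6.41% of all genes tested, and 1 was lower, against 10.1%.

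Of the other 14 CC chemokines, 7 were tested in PMNs and none passed in any comparison. The 2 of highest mean level in PMNs were Ccl24, a ligand of Ccr3 at 0 to 86.0 CPM after sham operation and 0 to 7.72 CPM after IRI, and Ccl28, an epithelial chemokine at 0 to 74.6 CPM after sham operation and 0 to 0.205 CPM after IRI.

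Each member was last matched with the genes of most similar pattern, by Pearson's r of log2 CPM plus 1 over the 10 PMN libraries among 15561 genes outside the 9. These libraries share the surgery groups and the markers given above, so the values are descriptions. Ccl6 was most like Flot1 (0.98), Taldo1 (0.97) and Ecm1 (0.97), Ccl9 like Ceacam1 (0.98), Wbp1l (0.97) and Ankfy1 (0.96), and among the members Ccl6 and Ccl9 were most alike (0.86). Ccl3 was most like Plk3 (0.92), Zfp593 (0.91) and Phf10 (0.91), and Ccl4 like Galk1 (0.95), Rasal3 (0.92) and Ifitm3 (0.91), while Ccl3 and Ccl4 had 0.68 with each other. Ccl2 was most like Tcf25 (0.98), Cmtm6 (0.97) and Bin2 (0.97). Ccl7 was most like Map2k4 (0.92), Gatd1 (0.90) and Gm13236 (0.89), and Ccl12 like Tmem208 (0.98), Atp5k (0.97) and Anapc13 (0.96).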

How the data were processed

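The authors reverse transcribed poly(A) RNA with a template switch, amplified full-length cDNA, sequenced single-end 50-base reads, trimmed them (Trim Galore 0.6.4) and quantified them with Salmon 1.0.0 against Gencode vM23. They deposited estimated counts per transcript, not normalized, with TPM values and effective lengths, in 2 files per library. Estimated counts were summed over both files and the transcripts of a gene (Gencode M21) and rounded. For chemokines of 20 or more reads in PMNs, the difference of the files over the square root of their sum had an SD of 0.252, where independent reads would give 1, while over all genes of 20 to 200 reads it was 0.88 to 1.11, so the added reads of the chemokines may overstate their counting depth. A count of 0 was taken to allow 3 reads in each file. Counting error only is covered.

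Sex-chromosome and mitochondrial genes were excluded, following the study. The main test was edgeR 4.0.16 (R 4.3.3, limma 3.58.1), a quasi-likelihood F test with a mean per group, TMM, filterByExpr and Benjamini-Hochberg adjustment over all genes, in fits of PMNs, TECs or both, and it was tested on simulated data. CPM values were scaled over all 21 libraries, and this scale differed from that of a single cell type by at most 0.133 (log2) between libraries. Alternatives were other scaling and filters, each file, a length offset, the replicate block, subsets of groups, each library left out, DESeq2 1.42.0 and apeglm 1.24.0. The members, the lists and the rule for named genes (all members, receptors and inducers past the threshold or binding the members, the 2 highest other chemokines, and the 3 most similar genes) were chosen with earlier results of these data known. Some genes of the lists are not reported here by name.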

Additional observations from a re-analysis of the deposited data

How the results depend on the processing

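Of the counts of CC chemokines called, those of 7 of the 11 comparisons stayed at 0 under every alternative run. For PMNs, IRI against sham operation, 2 members were called without a filter on low counts (Ccl6 and Ccl12) and 0 otherwise. For PMNs against TECs after sham operation the count of 7 rose to at most 8, with Ccl5 called by the DESeq2 Wald test alone. It went to 3 in the groups without RIPC, to 3 in those with RIPC and to between 4 and 7 when 1 library was left out. After IRI the count of 5 went to 0 and to 2 in these groups, and to between 5 and 7 when 1 library was left out. For RIPC in TECs after IRI, DESeq2 with apeglm called 1 member. No called value changed sign. Over all genes, 104 were called between IRI and sham operation in PMNs, against 1955 by the DESeq2 Wald test, 971 without a filter, 23 with the replicate block and 13 to 393 when 1 library was left out. For RIPC in PMNs after IRI, 0 genes were called, against 429 by the Wald test. The log2 difference of the ratio of Ccl3 to Ccl4 was 1.00 with each file alone and 1.03 with TPM, and lay between 0.87 and 1.11 when 1 library was left out.

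Samples with the same replicate number had deviations correlating between -0.02 and 0.03 in PMNs and between -0.11 and 0.14 in TECs, so the numbers were not taken as a pairing. Such correlations were not computed between PMNs and TECs. The labels do not say whether a PMN and a TEC library came from the same mouse. With the replicate number as a block, 6 members were called in PMNs against TECs after sham operation, 5 after IRI and 0 in each other comparison.

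Groups of 2 or 3 libraries limit the RIPC comparisons, and in TECs most members were at or near 0 reads. Fitted values of groups without a read depend on the fit.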
